A study of Mus musculus with 12 samples.

Results

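Genes of the epidermal growth factor (EGF) family and their ERBB receptors were followed in mouse hearts with and without ischemia-reperfusion (IR) and with and without a Slit2 transgene. The 9 genes were 5 ligands, Hbegf, Areg, Ereg, Btc and Nrg1, and 4 receptors, Egfr, Erbb2, Erbb3 and Erbb4, each found by its symbol among 52858 genes. A filter on low values left 15240 genes for testing, and 8 of the 9 passed it, Areg being the exception. Hbegf was the most abundant of the 9 genes in every library and the one whose level changed past the adjusted threshold, with a rise after IR over both genotypes. The mean levels of Areg and Ereg were also higher after IR in both genotypes, from few reads. For Areg, 54 of the 68 C57-IR reads came from 1 heart. No receptor differed between groups past the threshold.

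RNA came from 12 hearts of male mice 3 to 5 months old, 3 hearts per group. C57BL/6J hearts (C57-non-IR and C57-IR) carried no transgene, and Slit2-Tg hearts (Slit2-non-IR and Slit2-IR) came from mice that overexpress Slit2, a secreted guidance protein. That transgene is a human Slit2 cDNA driven by the CMV promoter, which is not restricted to heart cells, and the line was founded in eggs of mixed C57 and CBA origin on what is called a C57BL/6 line. All hearts were removed, hung on a Langendorff apparatus and perfused with buffer in place of blood. IR hearts had 20 min without flow and 40 min of reperfusion, and non-IR hearts were perfused without interruption for 80 min, the same total time. The labels state the genotype of each sample, whereas its perfusion is given by a single letter, taken here as IR or as the control without it.

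EGF family ligands are made as membrane proteins, and metalloproteases cut them loose so that they can bind receptors on the same or nearby cells. Their receptors are tyrosine kinases that work in pairs. EGFR binds HB-EGF, amphiregulin, epiregulin and betacellulin, ERBB4 binds neuregulins as well as HB-EGF, epiregulin and betacellulin, ERBB3 binds neuregulins but has little kinase activity of its own, and ERBB2 has no known ligand and serves as a partner of the others. In the heart, neuregulin from endothelial cells acts on cardiomyocytes through ERBB4 and ERBB2, and this axis is needed for the formation of the ventricular wall and for the upkeep of adult muscle.

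Each library held between 16601154 and 24841291 recovered reads, and 19.7% to 26.0% of them came from mitochondrial genes. This share was 23.87% to 25.98% in C57BL/6J and 19.73% to 23.78% in Slit2-Tg libraries, so that the genotypes did not overlap. The cause of that difference was not tested. All 8 cardiomyocyte markers were detected in every library, with summed levels of 11259 to 16480.3 FPKM (fragments corrected for gene length and library size, as the authors scaled them). Mouse Slit2, which does not measure the human transgene directly, lay between 0.0847 and 0.813 FPKM, with the highest value in Slit2-IR replicate 2, and the genotypes were not told apart by it (p = 0.98, two-sided exact permutation test), so that it could not serve to check the genotype labels. Slit2-IR replicate 1 stood apart with a summed level of 6 atrial markers of 1554 FPKM, and C57-IR replicate 2 had 165.8 FPKM, against 1.76 to 23.8 FPKM in the other 10 libraries. The hearts were measured as bulk tissue, in which fewer cells of a type and less RNA per cell cannot be told apart.

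Levels differed widely between the 9 genes on the FPKM scale, which corrects for gene length. The median over the 12 libraries was 11.8 FPKM for Hbegf, 2.43 for Erbb3, 2.20 for Erbb2, 0.761 for Egfr, 0.618 for Erbb4, 0.327 for Btc, 0.166 for Areg, 0.110 for Nrg1 and 0.0602 for Ereg. The lowest Hbegf value of 6.66 FPKM lay above the highest value of every other member. Erbb3 and Erbb2 overlapped over the libraries, as did Egfr and Erbb4, while no Erbb2 value was as low as the highest Egfr value. Among these libraries the ligand transcripts other than Hbegf were thus all scarcer in the median than those of the 4 receptors. The plot of ligand levels by group shows that Hbegf, Areg and Ereg shared 1 arrangement of the groups, with both IR means above both non-IR means, and that Btc and Nrg1 did not.

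**Figure D1:**
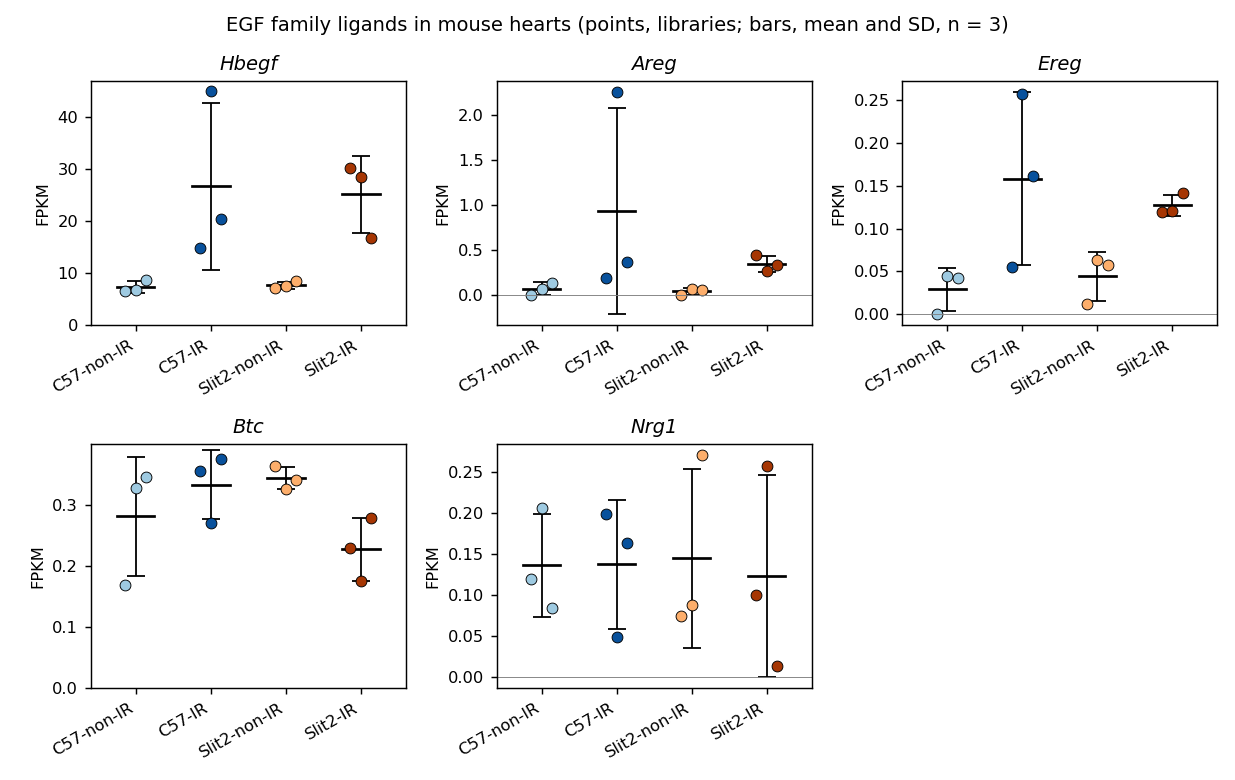
Levels of the 5 ligands in FPKM (vertical axis, a separate linear scale for each gene) in the 4 groups (horizontal axis), with a point for each library and bars for the mean and SD of 3 libraries. Hbegf lay between 6.66 and 8.72 FPKM without IR and between 14.8 and 45.0 FPKM with IR in C57BL/6J hearts, and C57-IR replicate 2 was the highest library for Hbegf, Areg and Ereg. The lower SD bar of Areg in C57-IR hearts passes below 0, where no level can lie.

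Hbegf encodes heparin-binding EGF-like growth factor, a ligand of EGFR and ERBB4 (ENSMUSG00000024486, chromosome 18, bases 36504929 to 36515805, minus strand). In C57-non-IR hearts its levels were 6.66, 6.74 and 8.72 FPKM, and in C57-IR hearts they were 14.8, 45.0 and 20.4 FPKM. In Slit2-non-IR hearts they were 7.17, 7.53 and 8.42 FPKM, and in Slit2-IR hearts 30.3, 28.4 and 16.7 FPKM. Every IR heart was thus above every non-IR heart, while the 2 genotypes overlapped under either perfusion. The group means were 7.37 ± 1.17 and 26.7 ± 16.0 FPKM in C57BL/6J hearts and 7.71 ± 0.646 and 25.1 ± 7.37 FPKM in Slit2-Tg hearts (SD, n = 3), a ratio of 3.63 in the first and 3.26 in the second. The IR groups were more spread than the non-IR groups, and most of the spread in C57-IR hearts came from replicate 2. That heart, the highest for Hbegf, Areg and Ereg, also had the second highest atrial marker sum (165.8 FPKM), and the part of atrial tissue in these levels was not tested. Counted as reads, Hbegf had 269 to 506 reads per non-IR library and 614 to 2106 per IR library, so that counting error was small beside the differences between hearts.

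Over both genotypes, Hbegf rose with IR by 1.57 on the log2(FPKM + 1) scale (SE 0.23, 95% interval 1.05 to 2.08, adjusted p = 0.00477, limma's moderated test with Benjamini-Hochberg adjustment), which placed it 66th by fold change among the 15240 tested genes. It was the 1 member of 8 past the adjusted threshold in this comparison, against 3.49% of all tested genes. The rise held in each of the 20 alternative fits, with adjusted p-values from 0.0012 to 0.0200. Without C57-IR replicate 2 it was 1.34 (adjusted p = 0.0024), and without Slit2-IR replicate 1, the library rich in atrial markers, it was 1.49 (adjusted p = 0.0161). Permuting IR labels within each genotype gave p = 0.005 (two-sided exact permutation test), the smallest that its 400 relabelings allow.

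Within a genotype the difference was as large but did not pass. In C57BL/6J hearts Hbegf differed by 1.59 (SE 0.33, limma adjusted p = 0.0785), and no member of 8 passed there, against 0.459% of tested genes. In Slit2-Tg hearts it differed by 1.54 (SE 0.33, limma adjusted p = 0.0725), and again 0 of 8 members passed, against 0.525%. These calls depended on single libraries. Without C57-IR replicate 1, the lowest C57-IR heart for Hbegf, Ereg and Areg, the difference in C57BL/6J hearts was 1.91 (adjusted p = 0.0152), and in Slit2-Tg hearts the adjusted p was 0.0284. Without C57-IR replicate 2 the first fell to 1.15 (adjusted p = 0.167), while the second passed with an adjusted p of 0.0105, since all groups share 1 estimate of the spread. Without Slit2-IR replicate 1 the difference in Slit2-Tg hearts was 1.39 (adjusted p = 0.237).

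Ereg passed the filter through its IR libraries alone, 5 of which had at least 10 scaled reads against 0 of the non-IR libraries (at most 5.51). It was therefore bound to differ with IR among the tested genes, and it is left out of the following counts over the other 7 tested members, while the shares of all tested genes include genes that passed in the same way. At the unadjusted threshold, 1 member (Hbegf) passed in C57BL/6J hearts against 8.96% of tested genes, in Slit2-Tg hearts against 11.2% and over both genotypes against 15.9%. Every IR library exceeded every non-IR library of its genotype for 1 of 7 members, Hbegf, and for 2.93% of all tested genes. The IR and non-IR groups did not overlap in either direction for 2 of 7 members in C57BL/6J hearts (Hbegf and Erbb2) and for 2 of 7 in Slit2-Tg hearts (Hbegf and Btc). The background for these counts was 13.8% and 16.9% of tested genes.

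**Figure D2:**
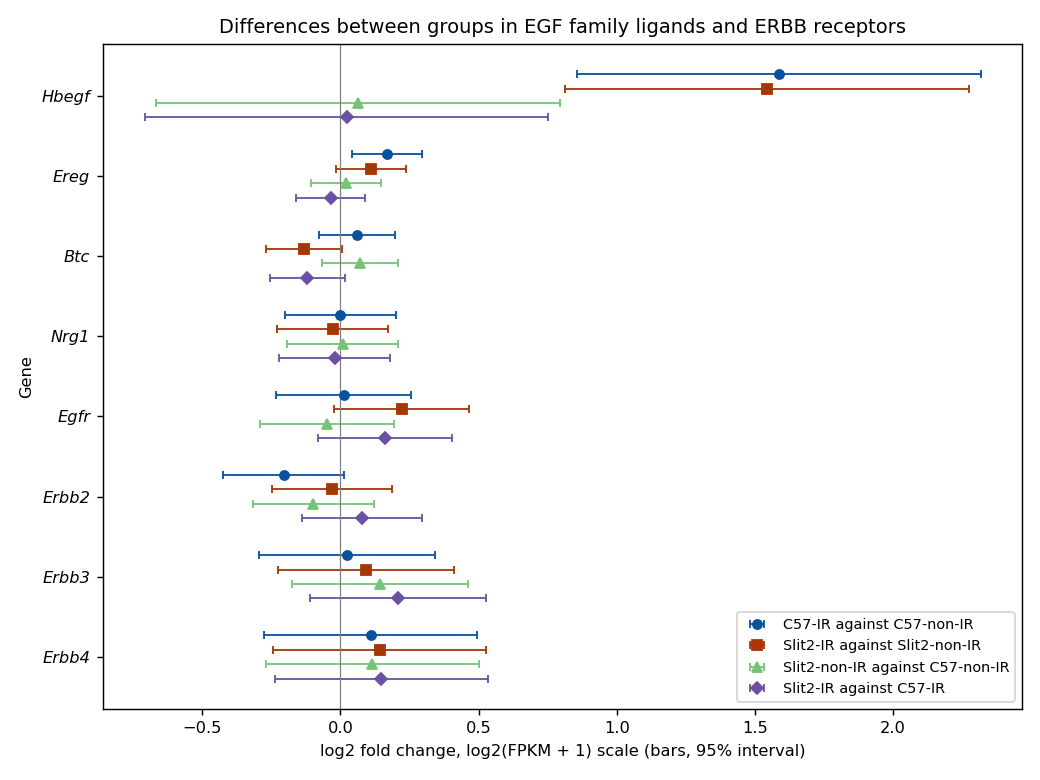
Log2 fold changes of the 8 tested members (horizontal axis, log2(FPKM + 1) scale) in the 4 pairwise comparisons, with a marker for each comparison and bars for the 95% interval from limma. The IR intervals of Hbegf, from 0.85 to 2.32 in C57BL/6J and from 0.81 to 2.28 in Slit2-Tg hearts, lay above 0. That of Ereg in C57BL/6J hearts (0.04 to 0.29) did too. Ereg passed the filter through its IR libraries alone, so that it was bound to differ with IR among the tested genes. Every genotype interval of the 8 genes covered 0.

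Areg encodes amphiregulin, a ligand of EGFR (ENSMUSG00000029378, chromosome 5, bases 91139599 to 91148432, plus strand). Its promoter is shown because the cyclic AMP response element, the palindrome TGACGTCA that CREB proteins recognize, stands in it close to the start of transcription. That of Btc, the next protein-coding gene of the cluster, is shown for comparison. Each line gives the 250 bases before the annotated start, on the strand of the gene, from RefSeq on GRCm38.p6 (chr5:91139349-91139598 for Areg and chr5:91402995-91403244 for Btc), with TGACGTCA and TATAAA in capitals.
Areg: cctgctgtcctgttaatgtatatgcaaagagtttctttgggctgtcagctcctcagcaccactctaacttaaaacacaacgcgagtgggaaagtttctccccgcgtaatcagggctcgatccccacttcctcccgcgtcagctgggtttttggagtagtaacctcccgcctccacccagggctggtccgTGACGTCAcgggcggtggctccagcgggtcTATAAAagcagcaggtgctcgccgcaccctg
Btc: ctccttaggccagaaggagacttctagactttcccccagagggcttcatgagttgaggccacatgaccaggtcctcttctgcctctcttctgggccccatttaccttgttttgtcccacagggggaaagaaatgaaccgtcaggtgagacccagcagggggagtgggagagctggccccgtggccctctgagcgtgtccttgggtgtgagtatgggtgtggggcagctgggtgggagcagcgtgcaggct

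In Areg the element lay 61 to 54 bases and the TATA box 31 to 26 bases before the start. The motifs searched on both strands were TGACGTCA, TGANTCA (the AP-1 element), TATAAA and the CArG box of serum response factor, no match of which overlapped another in these windows. Of 32851 RefSeq windows of this length, 1.55% held TGACGTCA, 6.75% TGANTCA, 12.4% TATAAA and 1.47% a CArG box. Windows were at hand for 5 of the 9 members, Areg, Btc, Egfr, Erbb2 and Erbb4, and among these Areg was the 1 member with a match. A match describes the letters of the window and not the use of a site in these hearts.

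In reads, which is the clearer scale for so scarce a transcript, Areg had 0, 2 and 3 in C57-non-IR, 4, 54 and 10 in C57-IR, 0, 2 and 2 in Slit2-non-IR, and 11, 8 and 9 in Slit2-IR libraries. The corresponding levels were 0, 0.0763 and 0.143 FPKM, 0.189, 2.25 and 0.366 FPKM, 0, 0.0714 and 0.0650 FPKM, and 0.446, 0.273 and 0.332 FPKM. All 6 IR hearts lay above all 6 non-IR hearts, with C57-IR replicate 2 far above the rest. A count of 0 allows up to 3 reads, which is 0.145 FPKM in C57-non-IR replicate 1 and 0.119 FPKM in Slit2-non-IR replicate 1.

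Summed over libraries and scaled for depth, the IR to non-IR ratio of Areg was 12.7 in C57BL/6J hearts (68 against 5 reads, exact 95% counting interval 5.20 to 40.5) and 7.26 in Slit2-Tg hearts (28 against 4 reads, 2.54 to 28.5). These intervals cover counting error only. Without C57-IR replicate 2 the C57BL/6J ratio was 3.92 (14 against 5 reads, 1.33 to 13.9). The exact permutation test on log2(FPKM + 1) within genotypes gave p = 0.005 for IR and p = 0.57 for genotype (both two-sided). Areg did not pass the filter and has no value in the main test. In a limma-voom fit of all genes with a read, chosen after the data were seen, its log2 fold change over both genotypes was 2.91 (SE 0.69, adjusted p = 0.0486), while limma on log2(FPKM + 1) without a filter gave 0.53 (adjusted p = 0.369).

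Ereg encodes epiregulin, which binds EGFR and ERBB4 (ENSMUSG00000029377, chromosome 5, bases 91074622 to 91093646, plus strand). It had 0, 4 and 3 reads in C57-non-IR, 4, 21 and 15 in C57-IR, 1, 6 and 6 in Slit2-non-IR, and 10, 12 and 13 in Slit2-IR libraries. Its levels were 0, 0.0449 and 0.0420 FPKM, 0.0555, 0.258 and 0.162 FPKM, 0.0117, 0.0630 and 0.0574 FPKM, and 0.119, 0.121 and 0.141 FPKM in the same order. Within each genotype all IR hearts lay above all non-IR hearts, though C57-IR replicate 1 was below 2 of the Slit2-non-IR hearts. The ratio of scaled reads was 5.36 in C57BL/6J hearts (40 against 7 reads, exact 95% counting interval 2.37 to 14.2) and 2.79 in Slit2-Tg hearts (35 against 13 reads, 1.44 to 5.75). The exact permutation test, run on all 9 members with or without the filter, gave p = 0.005 for IR. Those members were chosen with earlier results of these data known, so it is not independent support.

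The limma difference of Ereg over both genotypes was 0.14 (SE 0.04, adjusted p = 0.0963), a scale on which so low a gene moves little, and it entered this test through its IR libraries alone. Without Slit2-IR replicate 1 it was 0.14 (adjusted p = 0.162). Without C57-IR replicate 1 Ereg passed in this comparison (0.17, adjusted p = 0.0141) and in C57BL/6J hearts (0.23, adjusted p = 0.0476), where the value over all libraries was 0.17 (adjusted p = 0.344). Reads of Ereg may include some from Gm19610, an antisense gene that shares 152 bases with it, since the use of strand in the counting was not given in the sources used here. The 0 reads in C57-non-IR replicate 1 allow up to 0.0427 FPKM.

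Areg and Ereg are neighbours. On mouse chromosome 5 the ligand genes Epgn, Ereg, Areg and Btc follow one another with gaps of 39.4, 46.0 and 208.8 kb and with 0 other protein-coding genes between them. Both inner genes had higher levels after IR. Epgn, at one end of the cluster, stayed at or under 0.0994 FPKM and was not tested, and Btc, at the other end, differed by -0.04 with IR over both genotypes (95% interval -0.13 to 0.06).

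Btc encodes betacellulin, a ligand of EGFR and ERBB4 (ENSMUSG00000082361, chromosome 5, bases 91357261 to 91402994, minus strand). Its levels were 0.169, 0.328 and 0.345 FPKM in C57-non-IR, 0.355, 0.269 and 0.374 FPKM in C57-IR, 0.363, 0.326 and 0.341 FPKM in Slit2-non-IR, and 0.229, 0.175 and 0.278 FPKM in Slit2-IR hearts. All 3 Slit2-IR hearts were below all 3 Slit2-non-IR hearts, and the C57BL/6J groups overlapped. The difference in Slit2-Tg hearts was -0.13 (SE 0.06, unadjusted p = 0.058, limma adjusted p = 0.467), and the interaction of Slit2 and IR was -0.19 (SE 0.09, unadjusted p = 0.0526). Neither passed, and these values rest on 13 to 39 reads per library.

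Nrg1 encodes neuregulin 1, the ligand of ERBB3 and ERBB4 (ENSMUSG00000062991, chromosome 8, bases 31814551 to 32884029, minus strand). It ranged from 0.0130 to 0.271 FPKM (3 to 71 reads), and the 4 group means lay between 0.123 and 0.144 FPKM with SDs of 0.063 to 0.124 (n = 3). Its IR difference over both genotypes was -0.01 (95% interval -0.16 to 0.13). The groups overlapped in each of the 4 pairwise comparisons.

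The 4 receptor genes were steadier than Hbegf. The plot of receptor levels by group shows overlapping groups in most comparisons, with Erbb2 in C57BL/6J hearts as the exception.

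**Figure D3:**
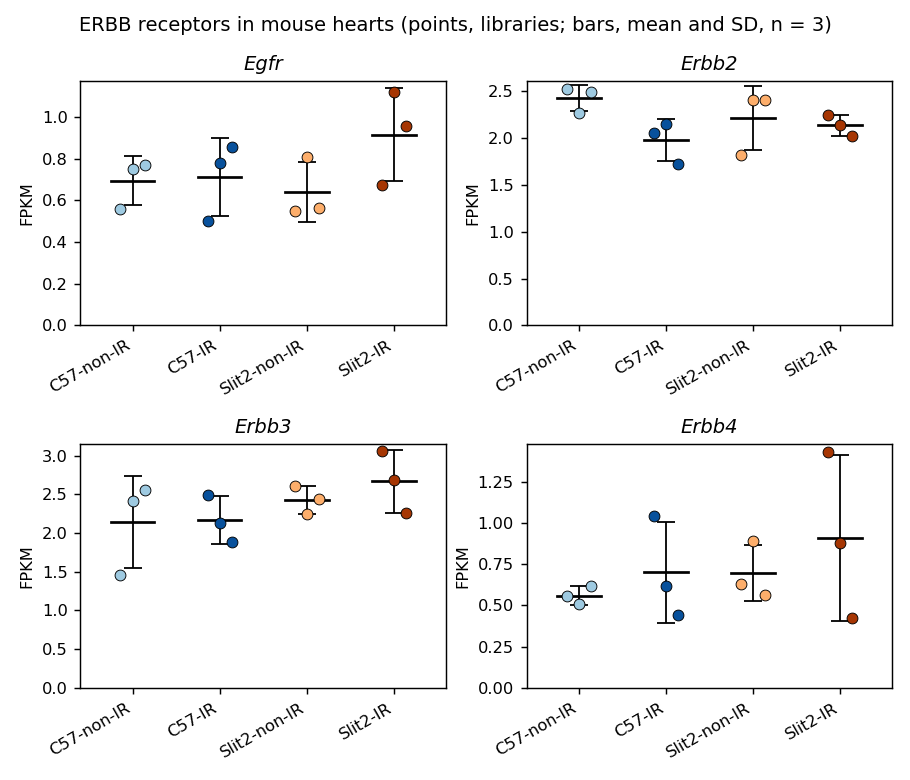
Levels of the 4 receptors in FPKM (vertical axis, a separate linear scale from 0 for each gene) in the 4 groups (horizontal axis), with a point for each library and bars for the mean and SD of 3 libraries. Erbb2 was lower in the 3 C57-IR hearts (1.73 to 2.15 FPKM) than in the 3 C57-non-IR hearts (2.27 to 2.52 FPKM), and Erbb4 was most spread in Slit2-IR hearts (0.421 to 1.43 FPKM).

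Egfr encodes the EGF receptor (ENSMUSG00000020122, chromosome 11, bases 16752203 to 16918158, plus strand). It had 0.560, 0.753 and 0.770 FPKM in C57-non-IR, 0.501, 0.779 and 0.856 FPKM in C57-IR, 0.549, 0.808 and 0.562 FPKM in Slit2-non-IR, and 0.674, 1.12 and 0.955 FPKM in Slit2-IR hearts. The Slit2-IR mean was the highest, and its range overlapped that of each other group. IR differed by 0.01 in C57BL/6J hearts and by 0.22 in Slit2-Tg hearts (SE 0.11 for each, limma adjusted p = 0.998 and 0.503; 0.32 in the second without Slit2-IR replicate 1, adjusted p = 0.400), and the interaction was 0.21 (95% interval -0.13 to 0.55).

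Erbb2 encodes the receptor without a ligand that pairs with the others (ENSMUSG00000062312, chromosome 11, bases 98412470 to 98437716, plus strand). Its levels were 2.52, 2.27 and 2.50 FPKM in C57-non-IR and 2.06, 2.15 and 1.73 FPKM in C57-IR hearts. In Slit2-non-IR hearts they were 1.82, 2.41 and 2.41 FPKM, and in Slit2-IR hearts 2.25, 2.14 and 2.02 FPKM. The C57BL/6J groups did not overlap and the Slit2-Tg groups did. The difference was -0.21 in C57BL/6J hearts (SE 0.10, unadjusted p = 0.061, limma adjusted p = 0.597) and -0.03 in Slit2-Tg hearts (adjusted p = 0.960), and the exact permutation test for IR over both genotypes gave p = 0.10. Mien1, on the other strand, shares 9 bases with Erbb2 and had a mean of 12.2 FPKM.

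Erbb3 encodes the receptor with a weak kinase (ENSMUSG00000018166, chromosome 10, bases 128567523 to 128589652, minus strand). It had 1.46, 2.42 and 2.55 FPKM in C57-non-IR, 2.50, 2.13 and 1.88 FPKM in C57-IR, 2.60, 2.24 and 2.44 FPKM in Slit2-non-IR, and 3.06, 2.69 and 2.25 FPKM in Slit2-IR hearts. Each group overlapped the next in the order of means, and the genotype difference had p = 0.12 (two-sided exact permutation test), the lowest of the 9 members for genotype. The gene is also known from Schwann cells, and 6 Schwann cell markers were detected in all libraries with summed levels of 3.70 to 7.99 FPKM, the highest in Slit2-IR replicate 1, which also had the highest Erbb3 level. The IR difference of Erbb3 over both genotypes was 0.06 with that library and 0.02 without it (adjusted p = 0.969). The part of these cells in the Erbb3 level was not tested.

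Erbb4 encodes the neuregulin receptor of cardiomyocytes (ENSMUSG00000062209, chromosome 1, bases 68032186 to 69108059, minus strand). It had 0.556, 0.506 and 0.617 FPKM in C57-non-IR, 1.04, 0.619 and 0.443 FPKM in C57-IR, 0.632, 0.888 and 0.566 FPKM in Slit2-non-IR, and 1.43, 0.877 and 0.421 FPKM in Slit2-IR hearts. Replicate 1 was the highest and replicate 3 the lowest heart of both IR groups, and the ranges of the groups overlapped in every comparison. Its IR difference over both genotypes was 0.13 (95% interval -0.15 to 0.40), and 0.03 without Slit2-IR replicate 1 (adjusted p = 0.953). The highest value was that of Slit2-IR replicate 1, the library with the atrial marker sum of 1554 FPKM, and the part of atrial tissue in it was not tested.

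Under either perfusion, genotype differences of the members stayed within the spread between hearts. Without IR, 0 of 8 members passed the adjusted threshold in limma (0.0394% of tested genes did) and 0 passed at the unadjusted one (3.19%). After IR the counts were 0 of 8 (0.0459%) and 0 of 8 (3.16%), and for the interaction 0 of 8 (0.0%) and 0 of 8 (1.86%). The limma-voom fit on recovered reads also called 0 members in each of these comparisons. The 2 genotypes overlapped for all 8 tested members, against 9.2% of tested genes that did not overlap without IR and 6.47% after it. For Hbegf the genotype difference was 0.06 without IR (95% interval -0.67 to 0.79) and 0.02 after IR (-0.71 to 0.75), and the interaction was -0.04 (-1.07 to 0.99). These intervals are wide. That of the interaction includes differences of up to about 1 on the log2 scale, in either direction, in the IR response of Hbegf between genotypes.

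Beyond the 9 genes, 4 lists covered the rest of the pathway. In the list of other EGF family ligands (Egf, Tgfa, Epgn, Nrg2, Nrg3 and Nrg4), 4 of 6 genes were tested. With IR over both genotypes 0 of these passed the adjusted threshold, against 3.49% of all tested genes. Egf, the founding ligand, had the smallest p of that list with a difference of 0.14 (adjusted p = 0.498). Of 8 genes for ligand shedding, which include the protease gene Adam17 and its partners Rhbdf1 and Rhbdf2, all 8 had differences above 0, against 51.3% of tested genes. Their median was 0.06 on the log2 scale against 0.00 for all tested genes, and 0 passed, against 3.49%. Rhbdf2, which brings ADAM17 to the cell surface, came closest with 0.37 (SE 0.10, adjusted p = 0.0645), and it passed in the limma-voom fit on recovered reads (0.48, adjusted p = 0.0439) and without C57-IR replicate 1 (0.42, adjusted p = 0.0329).

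Of 10 genes taken as MAPK pathway targets, 3 rose and 0 fell with IR over both genotypes. Their median difference was 0.38 against 0.00 for all tested genes, of which 3.49% passed. Like the members, this list was chosen with earlier results of these data known, so its counts do not test the pathway. The paper lists Phlda1, Dusp4 and Spry2 as higher in C57-IR than in C57-non-IR hearts, from the same libraries. Its list also holds the members Hbegf, Areg and Ereg, and Errfi1, Epha2, Spry4 and Rhbdf2, while Nrg2 is among its lower genes. Its cutoff was a p-value for which it states no adjustment. By the adjusted threshold used here, Hbegf, Ereg and Spry2 did not pass in C57BL/6J hearts (limma adjusted p = 0.0785, 0.344 and 0.137). Areg was left out by the filter. Phlda1, a pleckstrin homology domain gene induced by growth factors, had 9.11, 6.58 and 5.87 FPKM in C57-non-IR, 23.3, 24.1 and 21.6 FPKM in C57-IR, 9.53, 7.61 and 7.33 FPKM in Slit2-non-IR, and 33.6, 45.2 and 19.6 FPKM in Slit2-IR hearts. All IR hearts lay above all non-IR hearts, and the difference was 1.69 (SE 0.17, adjusted p = 0.000844). Dusp4, a nuclear phosphatase of MAP kinases, ranged from 0.943 to 1.37 FPKM without IR and from 2.33 to 4.05 FPKM with IR, a difference of 0.90 (SE 0.10, adjusted p = 0.00173).

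Both of these genes also passed within each genotype, Phlda1 with adjusted p-values of 0.0302 and 0.0181 and Dusp4 with 0.0468 and 0.0236 in C57BL/6J and Slit2-Tg hearts. These calls were less firm than those over both genotypes. For Phlda1 the call in C57BL/6J hearts was lost in 8 of its alternatives, namely without a filter and without any of C57-non-IR replicates 1 to 3, C57-IR replicates 2 and 3 and Slit2-non-IR replicates 2 and 3 (adjusted p from 0.0594 to 0.153). In Slit2-Tg hearts it was lost in 7, namely without a filter, with only the groups compared, and without any of Slit2-non-IR replicates 1 to 3 and Slit2-IR replicates 1 and 2 (adjusted p from 0.0501 to 0.0929). For Dusp4 the call in C57BL/6J hearts was lost in 14 of its alternatives, namely without a filter, with only the groups compared, with total-read scaling, in both limma-voom fits, and without any of C57-non-IR replicates 1 to 3, C57-IR replicates 2 and 3, Slit2-non-IR replicates 1 to 3 and Slit2-IR replicate 1 (adjusted p from 0.0537 to 0.216). In Slit2-Tg hearts it was lost in 8, namely without a filter, with only the groups compared, and without any of C57-non-IR replicate 3, Slit2-non-IR replicates 1 to 3 and Slit2-IR replicates 1 and 2 (adjusted p from 0.0513 to 0.111).

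Spry2, an inhibitor of receptor tyrosine kinase signalling that is in 2 of the lists, ranged from 7.55 to 10.4 FPKM without IR and from 11.2 to 17.0 FPKM with IR. Its difference was 0.55 (SE 0.11, adjusted p = 0.0213). The call for Spry2 was lost without a filter (adjusted p = 0.0540) and without any of C57-non-IR replicates 1 and 3, Slit2-non-IR replicates 1 and 2 and Slit2-IR replicates 1 and 2 (0.0535 to 0.0577).

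The list of receptor feedback and turnover held 19 genes, among them Grb2, Shc1, Gab1 and Sos1, which pass receptor signals on. Of these 19, 1 (Spry2) rose and 0 fell, a share near the 3.49% of all tested genes that passed. Their median was 0.06 against 0.00. Errfi1, an inhibitor that binds the kinases of EGFR and ERBB2, had means of 23.1 ± 6.32 and 41.6 ± 17.7 FPKM in C57-non-IR and C57-IR and of 20.9 ± 12.1 and 43.2 ± 8.27 FPKM in Slit2-non-IR and Slit2-IR hearts (SD, n = 3). Its difference of 0.94 (SE 0.29, adjusted p = 0.113) did not pass, and its C57BL/6J groups overlapped. Without C57-IR replicate 1 or Slit2-non-IR replicate 2 it was 1.15 and passed (adjusted p = 0.0283 and 0.0479), and it also passed with the replicate number as a block (adjusted p = 0.0130). In neither genotype comparison did a gene of the 4 lists pass.

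**Figure D4:**
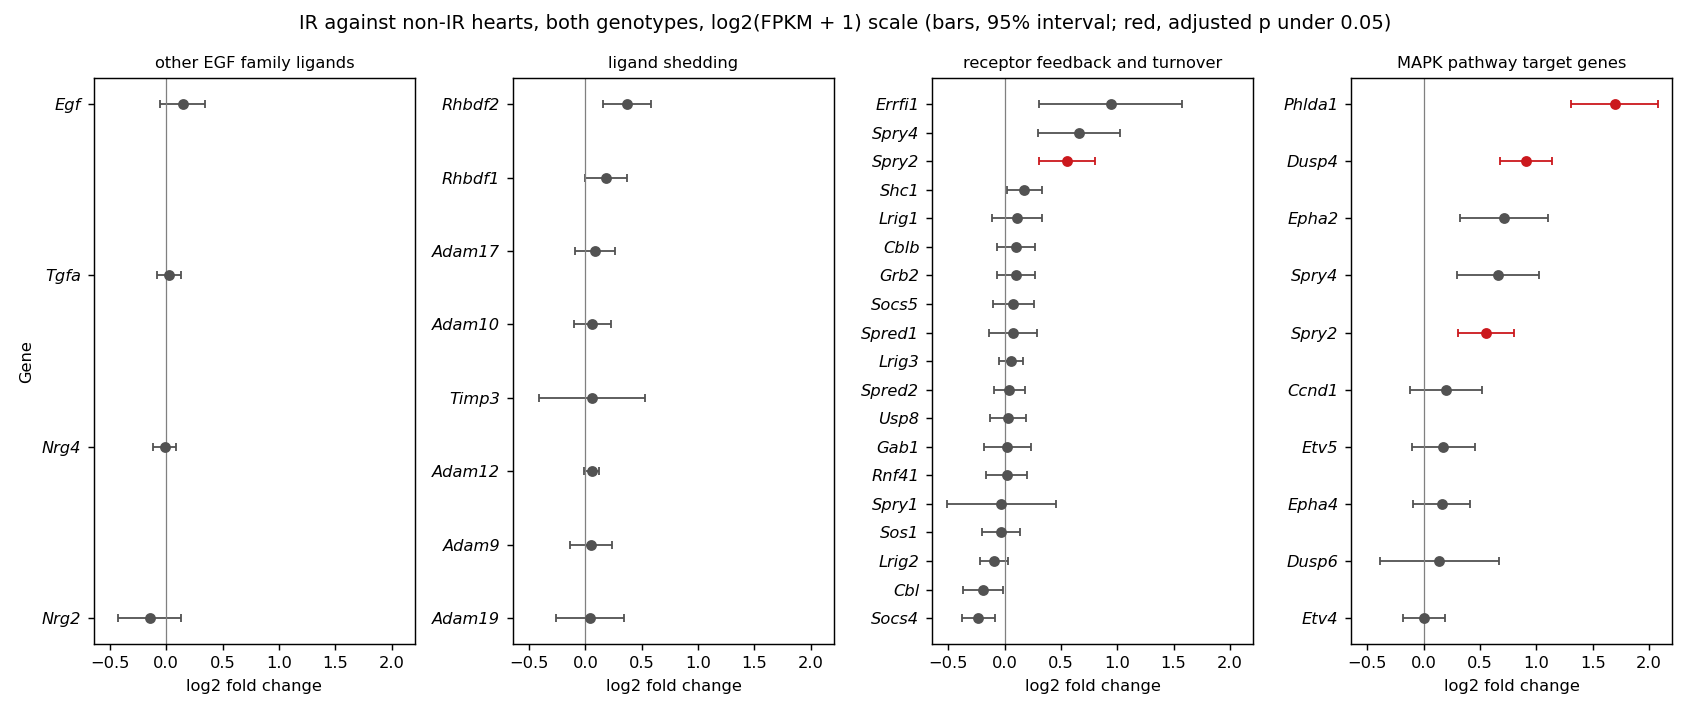
Log2 fold changes of the tested genes of 4 pathway lists with IR over both genotypes (horizontal axis, log2(FPKM + 1) scale, the same in all panels), with bars for the 95% interval from limma and red for genes past the adjusted threshold. Spry2 and Spry4 are in 2 lists. The 3 genes past the threshold, Phlda1 (1.69), Dusp4 (0.90) and Spry2 (0.55), lay above 0, and no gene of the other EGF family ligands or of ligand shedding was among them.

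Summed markers of other cell types describe part of the make-up of the same libraries. Among 6 mesothelial markers, 5 of which were detected in all libraries, sums were 1.998 to 4.77 FPKM in C57-non-IR and 4.19 to 5.14 FPKM in C57-IR hearts, and 0.87 to 4.31 FPKM in Slit2-non-IR and 2.05 to 5.66 FPKM in Slit2-IR hearts. Adipose markers summed to 0 to 0.85 FPKM in C57-non-IR and 0.11 to 17.2 FPKM in C57-IR hearts. C57-IR replicate 1, the lowest C57-IR heart for Hbegf, had 0.11, and replicates 2 and 3 had 14.1 and 17.2 FPKM. In Slit2-Tg hearts the sums were 1.41 to 7.97 FPKM without IR and 0.77 to 10.02 FPKM with IR. Leukocyte sums (6 of 6 markers detected) were 162 to 354 FPKM in C57BL/6J and 174 to 311 FPKM in Slit2-Tg hearts and overlapped between IR and non-IR hearts, as did endothelial and fibroblast sums. Blood markers (5, of which 3 were detected in all libraries) summed to 8.35 to 16.2 FPKM in C57-non-IR and 1.47 to 6.79 FPKM in C57-IR hearts, which did not overlap and were lower with IR. In Slit2-Tg hearts their sums of 4.53 to 49.03 FPKM without IR and 1.85 to 12.9 FPKM with IR overlapped. Lung markers (6, of which 2 were detected in all libraries) summed to 0.28 to 9.81 FPKM in C57-non-IR and 0.25 to 11.3 FPKM in C57-IR hearts. C57-IR replicate 1 had 0.25, and replicates 2 and 3 had 9.57 and 11.3 FPKM. In Slit2-Tg hearts the lung sums were 0.14 to 12.5 FPKM without IR and 0.12 to 0.26 FPKM with IR. The part of these cells in the levels of Hbegf, Areg and Ereg was not tested.

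The genes most like each tested member over the 12 libraries were sought among 11192 tested genes with a mean of at least 1 FPKM, by the Pearson correlation of log2(FPKM + 1). For Hbegf they were the chemokine gene Cxcl10 (r = 0.992), Ugdh (0.984) and Gcc1 (0.983), and for Ereg they were the protease genes Mmp13 (0.967) and Plat (0.954) and the membrane protein gene Emp1 (0.961). Since both members were higher in IR hearts, these values hold the split between IR and non-IR libraries. Those for the receptors were Ncald, Nup35 and Snai1 for Egfr (0.880 to 0.900), Gpatch3, Asb6 and Erg28 for Erbb2 (0.878 to 0.942), Garem1, Sptb and Nt5c1a for Erbb3 (0.932 to 0.944), and Acadm, Rgs6 and Gpc4 for Erbb4 (0.904 to 0.917). For Btc and Nrg1, where few reads limit any likeness, they were Tbc1d5, Dr1 and Gm14292 (0.848 to 0.855) and Mid2, Tjp1 and Prex2 (0.823 to 0.854). Each is the top of a search over many genes and a description of these 12 libraries.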

How the data were processed

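Libraries were made from total heart RNA with a NEBNext Ultra kit and sequenced as paired-end reads. The submitters' processing notes name HISAT2 and mm10, and the counting tool, annotation release and use of strand are not given in the sources used here. The authors deposited FPKM values, 1 for each gene in a library, beside Ensembl identifiers and positions on GRCm38. Multiplied by gene length and divided by what 1 read is worth in its library, 100% of these values came out whole within 0.01 reads, which gave back the reads per gene. What 1 read is worth varied between libraries as their median-of-ratios size factors do. All per-library columns were used (0 left out).

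Differences were tested on log2(FPKM + 1) with limma (moderated test, trend of the variance with level), fitting the 4 group means at once without covariates, on 15240 genes with at least 10 scaled reads in at least 3 libraries and 15 reads in all. The p-values of a comparison were adjusted by Benjamini-Hochberg over these genes, at a threshold of 0.05. On this scale the change of low genes is understated. Single genes were tested with two-sided exact permutation tests within strata (3 against 3 alone cannot go below 0.1). The labels call the samples of a group independent, and p-values cover the spread between them. The fit was also run on simulated reads, drawn independently for each library. That run held no link between libraries of the same number, so it does not cover the correlations that follow. Deviations from the group means had correlations above 0 between libraries of the same number in every pair. They were 0.143 to 0.294 for Slit2-IR with Slit2-non-IR hearts and 0.154 to 0.362 for Slit2-IR with C57-IR hearts. For C57-IR with C57-non-IR hearts they were 0.0833 to 0.295, and for Slit2-non-IR with C57-non-IR hearts 0.0377 to 0.324. Pairs of replicate 1 had 0.285 to 0.324 over the 4 comparisons. The replicate numbers come from the labels, which name no shared litter or day.

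Named genes were the 9 members, genes of the 4 pathway lists past the threshold in a comparison, the gene of each list with the smallest p for IR over both genotypes, Slit2, and the 3 genes most like each tested member. Epgn, Epha2, Spry4, Adam17, Rhbdf1, Grb2, Shc1, Gab1, Sos1, Mien1 and Gm19610 were named beyond this rule. The members and lists were chosen with earlier results of these data known. Alternatives were a pseudocount of 0.1, other filters, only the groups compared, the replicate block, total-read and quantile scaling, limma-voom on recovered reads and leaving out each library. The 4 groups of 3 libraries were too small for a search for outlying samples. Within every group, pairs of libraries with replicate 1 differed more in their reads (chi-square per gene 34.3 to 52.7) than replicates 2 and 3 did (8.35 to 38.5). The cause of this was not tested. Versions were limma 3.58.1 in R 4.3.3, and scipy 1.17.1, matplotlib 3.10.9 and pandas 2.3.3 in Python 3.11.15.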

Additional observations from a re-analysis of the deposited data

How the results depend on the processing

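Hbegf over both genotypes stayed past the threshold in all 20 alternatives, with differences from 1.34 to 1.73. The number of members past the threshold ranged from 1 to 2 when single libraries were left out over both genotypes, from 0 to 2 in C57BL/6J hearts, from 0 to 1 in Slit2-Tg hearts, and was 0 throughout for both genotype comparisons and the interaction. Each count of 2 here came without C57-IR replicate 1 and included Ereg, which entered the test through its IR libraries alone. The number was also 2 over both genotypes in limma-voom without a filter, where the filter no longer left Areg out. With the replicate block it was 1 over both genotypes and 0 in each other comparison, so that the block changed no call of a member, while Errfi1, Epha2 and Spry4 passed with it over both genotypes (adjusted p = 0.0130, 0.0159 and 0.0108), and Epha2 in Slit2-Tg hearts (0.0383, and 0.110 without the block). Signs turned where differences were near 0. The IR difference of Nrg1 over both genotypes was -0.01, ranged from -0.0560 to 0.0248 over the libraries left out, and was above 0 (from 0.0077) without C57-non-IR replicate 2, C57-IR replicate 2, Slit2-non-IR replicate 3 or Slit2-IR replicate 3 (0.0145 and 0.0218 for the IR libraries). That of Erbb3 was -0.0097 with total-read scaling and from -0.0251 (without C57-non-IR replicate 1) to 0.1071 over the libraries left out. Hbegf in Slit2-IR against C57-IR hearts ranged from -0.3068 to 0.4627 over the libraries left out and was -0.3068 without C57-IR replicate 1, -0.0897 without C57-IR replicate 3, -0.1297 without Slit2-IR replicate 1 and -0.0855 without Slit2-IR replicate 2. Its interaction ranged from -0.3702 to 0.3992 and was 0.0185, 0.0110, 0.3992, 0.0170 and 0.2180 without C57-non-IR replicates 1 and 2, C57-IR replicate 2, Slit2-non-IR replicate 3 and Slit2-IR replicate 3. The cause of these turns was not tested. Epha2 and Spry4 passed in 7 and 6 of their alternatives. Scaling moved the median of all genes by at most 0.07. Where an arm was left with 2 libraries, the spread was shared over the groups. Few reads limit Areg, Ereg, Btc and Nrg1, and 3 hearts per group limit the genotype comparisons.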
